A study of Homo sapiens with 18 samples.

Results

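The transcriptional response to a gamma-secretase inhibitor (GSI) was compared between PIK3R1 knockout cells and control cells, gene by gene. The quantity described is an interaction: the log2 change with GSI in knockout cells minus the log2 change with GSI in control cells. A positive value means that the knockout response lay above the control response, by a smaller fall or a larger rise, and a negative value the reverse. All expressed genes were included, 17346 of the 58735 genes in the count table. The cells were RPMI-8402, an established human line of T-cell acute lymphoblastic leukaemia (T-ALL). NT cells carried a non-targeting control and are labelled wild type, and KO cells carried a PIK3R1 knockout. Both were treated for 24 h with the vehicle DMSO or with the GSI LY3039278, in 3 libraries per group, which gives 12 of the 18 libraries of the study. The other 6 libraries, NT and KO cells treated with the NOTCH inhibitor CB-103, entered the fit to estimate the spread and are set beside the GSI results once. The sources used here do not give the doses, or whether KO cells were a clone or a pool, and the replicates are not described as independent cultures. The p-values thus reflect library-to-library spread, which may be technical.

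NOTCH receptors are cut by gamma-secretase within the membrane, and the released intracellular part enters the nucleus, where it joins the DNA-binding protein RBPJ and switches on target genes. In many T-ALL cells NOTCH1 is active without ligand and drives MYC and cell growth, and a GSI shuts this supply of intracellular NOTCH off. PIK3R1 encodes p85-alpha, a regulatory subunit that stabilises and restrains the catalytic subunits of class I phosphoinositide 3-kinase (PI3K), the start of the AKT pathway to growth, FOXO factors and protein synthesis. The comparison asks whether the loss of this subunit changes what GSI does to gene expression.

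PIK3R1 (ENSG00000145675, chr5:68215720-68301821, hg38) checks the labels. Its RNA stood at 44.3, 45.5 and 42.5 CPM in NT DMSO, 50.7, 57.1 and 53 CPM in NT GSI, 23.1, 21.4 and 23.2 CPM in KO DMSO and 27.4, 32.2 and 23.9 CPM in KO GSI. CPM are counts per 1000000 with library sizes scaled by the trimmed mean of M values (TMM). The KO libraries were all below the NT libraries with DMSO and with GSI, some RNA was left in the knockout, and no protein data were used. The CB-103 libraries, whose PIK3R1 interaction is given below, are not part of this check. Its interaction was 0.02±0.12, adjusted p = 0.94 (log2±SE, 3 libraries per group, edgeR quasi-likelihood test with Benjamini-Hochberg adjustment, as for all values below). The 12 libraries held 31535657 to 43558387 counts. Markers of the line were present in all 12: CD3E at 269 to 385 CPM, LCK at 567 to 782 CPM and TAL1 at 45.1 to 66.8 CPM. Others of the same list had wider ranges: CD7 from 1.68 to 23.0 CPM, CD2 from 11.7 to 77.5 CPM and LMO1 from 13.4 to 199.8 CPM. These ranges span all groups and so include differences between genotypes and treatments, as for CD2 below. Mitochondrially encoded genes took a share of counts of 3.22%, 3.09% and 3.72% in NT DMSO, 5.51%, 1.90% and 3.95% in NT GSI, 1.88%, 1.81% and 1.69% in KO DMSO, and 2.40%, 2.40% and 2.57% in KO GSI. NT GSI libraries thus differed most among themselves, with replicate 2 apart from the other two. NEAT1, a nuclear long non-coding RNA chosen after its values were seen, stood at 334, 205 and 288 CPM in the NT GSI libraries, also lowest in replicate 2, against 156, 172 and 159.7 CPM in KO GSI. The libraries are bulk, so a change in a few cells and a change in all cells cannot be told apart.

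Of the 17346 genes, 484 (2.79%) had a called interaction, at an adjusted p under 0.05. The value was positive for 364 (2.1%) and negative for 120 (0.692%), so 75.2% of called genes were positive, although the median over all genes was 0.02. At least 2-fold interactions were called for 54 genes (0.311%), 27 in each direction. For comparison, the GSI response itself was called for 4277 genes (24.7%) in NT cells, with 1677 rises (9.67%) and 2600 falls (15%), and for 3341 genes (19.3%) in KO cells, with 1680 rises (9.69%) and 1661 falls (9.58%). At least 2-fold responses were called for 510 genes (2.94%) in NT and 322 (1.86%) in KO cells. Both genotypes responded to GSI, and for most genes no difference between the 2 responses passed the threshold. At an unadjusted p under 0.05 the interaction counted 3506 genes.

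The positive interactions were mostly falls that were smaller or not called in KO cells. Among the 364, 188 fell with GSI in NT cells and were not called in KO cells, and 73 fell in both genotypes, by less in KO cells. Another 77 rose in KO cells alone, 22 fell in NT and rose in KO cells, and 4 rose in both. The 188 had a median response of -0.35 in NT cells and 0.04 in KO cells, and the 73 had medians of -0.88 and -0.46. Among the 120 negative interactions, 59 rose in NT cells and were not called in KO cells, 38 fell in KO cells alone, 9 rose in NT and fell in KO cells, 7 rose in both, 6 fell in both and 1 was called in neither. These classes rest on calls within each genotype. The difference between genotypes is what the interaction tests.

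**Figure D1:**
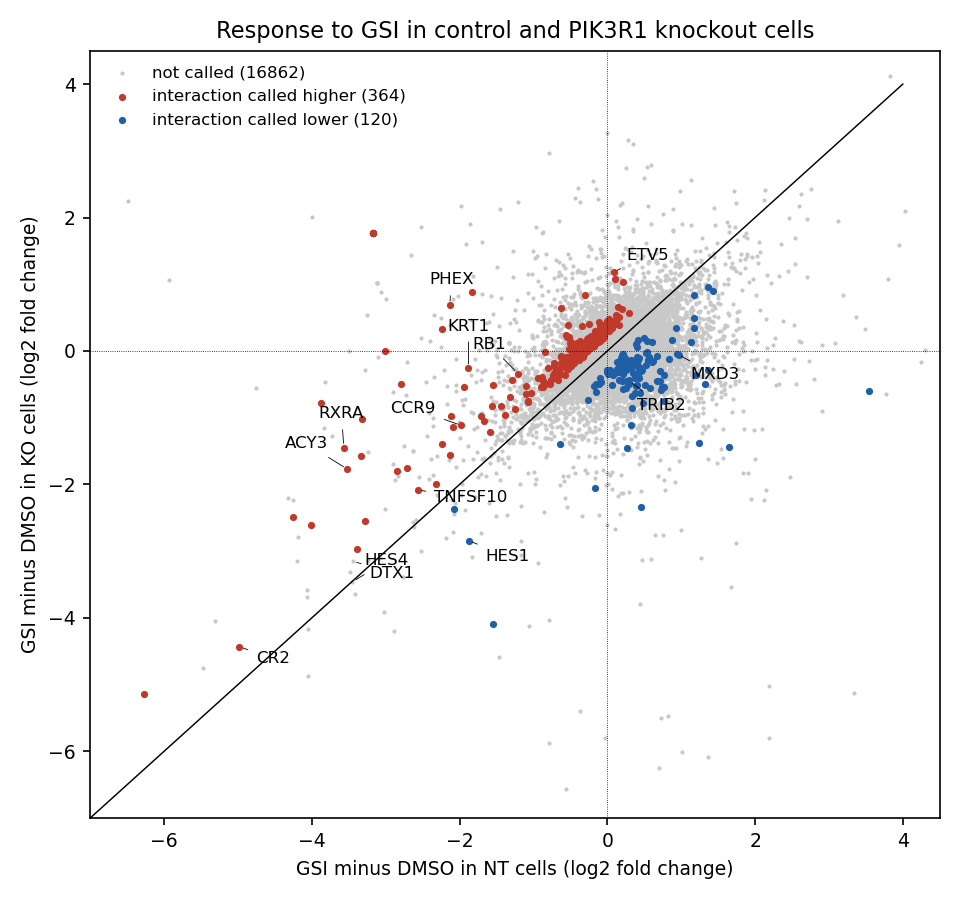
Log2 response to GSI in KO cells (y axis) against that in NT cells (x axis) for each tested gene, with 17 genes outside the plotted range. Red points are the 364 genes with a called positive interaction and lie above the diagonal of equal responses, blue points are the 120 with a negative one, and grey points were not called; HES4 lies on the diagonal and HES1 below it.

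The number of calls depended on which library was in the fit, while the sizes changed less. Without KO DMSO replicate 1, 2 or 3 there were 237, 177 and 488 called genes. Without KO GSI replicate 1, 2 or 3 there were 383, 114 and 69. Leaving out NT DMSO replicate 1, 2 or 3 gave 53, 140 and 214 calls, and leaving out NT GSI replicate 1, 2 or 3 gave 107, 1505 and 168. The highest count came without the NT GSI library that had the lowest mitochondrial share. Of the 484 genes, 483 kept an interaction within 1.5 times its reported value in each of these 12 fits. The exception was ASXL1, a chromatin regulator, at -0.26 with all libraries and -0.17 without NT GSI replicate 3. None of the 484 changed sign. These genes were selected by their values in the full fit, and each of the 12 fits shares most of its libraries. Such steadiness was therefore likely in advance and does not measure how well the sizes would repeat. Called in all 12 fits were 44 genes, 37 positive and 7 negative, a set chosen after the data were seen. The description below leads with these 44, and for most other genes the number of fits that kept the call is given.

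**Figure D2:**
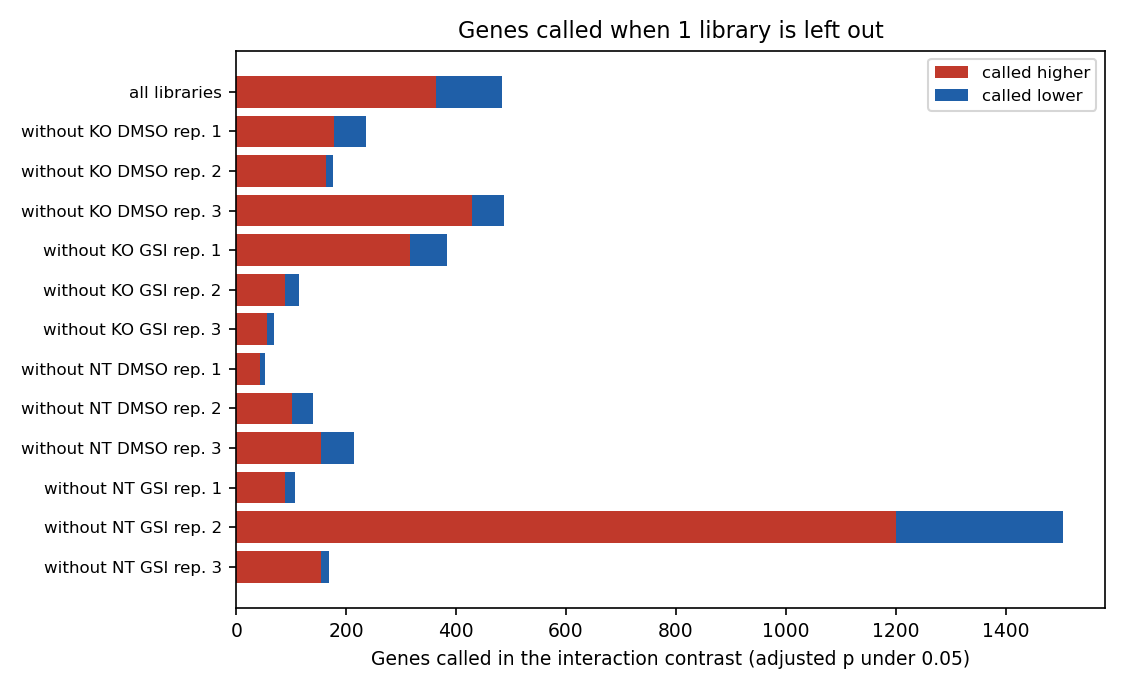
Number of genes with a called interaction (x axis, adjusted p under 0.05) with all libraries and with each of the 12 libraries left out in turn, red for positive and blue for negative interactions. The count runs from 53 without NT DMSO replicate 1 to 1505 without NT GSI replicate 2, and positive calls outnumber negative ones in every bar.

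Among direct NOTCH targets, HES1 and TRIB2 ended lower in KO cells, while for most others no difference between the genotypes was called. The promoters of HES1 and HES4 are shown because these related repressors are both switched on by NOTCH, and the interaction was called for the first and not for the other. Each holds 1 copy of the RBPJ motif GTGGGAA, searched on both strands and printed in capitals. Both are the 250 bases before the start of transcription, 5′ to 3′ in the direction of the gene, from the RefSeq promoter table (GRCh38.p14): chr3:194135898-194136147 on the plus strand and chr1:1000098-1000347 on the minus strand.
HES1: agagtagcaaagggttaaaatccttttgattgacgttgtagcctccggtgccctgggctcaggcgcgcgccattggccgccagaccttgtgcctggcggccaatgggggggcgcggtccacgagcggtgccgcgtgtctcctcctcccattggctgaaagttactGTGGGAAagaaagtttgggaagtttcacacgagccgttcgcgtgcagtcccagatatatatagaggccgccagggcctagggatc
HES4: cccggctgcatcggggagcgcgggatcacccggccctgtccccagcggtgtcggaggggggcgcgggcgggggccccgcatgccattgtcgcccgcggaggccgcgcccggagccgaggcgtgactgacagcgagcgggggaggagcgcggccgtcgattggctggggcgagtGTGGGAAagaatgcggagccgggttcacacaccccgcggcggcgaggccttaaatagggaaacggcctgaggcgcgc
The motif begins 85 bases before the start in HES1 and 77 bases before it in HES4. Among 35116 RefSeq promoter windows of this length, 5.43% hold GTGGGAA, and 20.8% hold its core TGGGAA, which every GTGGGAA match contains. A match is a description of the letters and not a measured binding site.

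HES1 (ENSG00000114315, chr3:194136145-194138732, hg38), a repressor and the classic NOTCH target, fell further in KO cells. Its level was 80.6, 88.3 and 84.2 CPM in NT DMSO, 23.7, 22.6 and 22.5 CPM in NT GSI, 82.3, 68.7 and 67.9 CPM in KO DMSO and 10.9, 10.1 and 9.45 CPM in KO GSI. The DMSO libraries of the genotypes overlapped, whereas all 3 KO GSI libraries lay below all 3 NT GSI libraries. GSI lowered HES1 3.68-fold in NT cells (-1.88±0.09) and 7.17-fold in KO cells (-2.84±0.09), an interaction of -0.96±0.12, adjusted p = 0.0014. It was the only negative interaction among the 12 genes called under all 21 alternatives other than the 2-fold threshold, which it did not reach. HES4 (ENSG00000188290, chr1:998962-1000172) stood at 49.9, 50.3 and 48.4 CPM in NT DMSO, 4.41, 4.48 and 4.65 CPM in NT GSI, 55.3, 54.4 and 57.9 CPM in KO DMSO and 4.56, 5.34 and 5.29 CPM in KO GSI. It fell 11-fold in both genotypes, and its interaction was -0.01±0.13, adjusted p = 0.98.

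DTX1, a NOTCH-regulated ubiquitin ligase, fell 10.9-fold in NT cells and 8.88-fold in KO cells (0.30±0.12, adjusted p = 0.16 for the difference). MYC, the growth-promoting factor downstream of NOTCH1, stood at 124, 127 and 116 CPM in NT DMSO, 32.6, 32.4 and 29.5 CPM in NT GSI, 122, 104 and 104 CPM in KO DMSO and 37, 34.6 and 34.6 CPM in KO GSI. It fell 3.89-fold in NT and 3.1-fold in KO cells, and the difference of 0.33±0.09 did not pass (adjusted p = 0.067). With the replicate number as a block in the same edgeR test, the MYC difference was called (0.33, adjusted p = 0.018). Without the block, the difference was also not called for NOTCH3 (0.25±0.23, adjusted p = 0.57) or for the insulin-like growth factor receptor IGF1R (0.09±0.12, adjusted p = 0.71). IGF1R fell 2.69-fold in NT and 2.53-fold in KO cells. CCND3 (cyclin D3) had -0.12±0.10, adjusted p = 0.56, and CDKN1B, an inhibitor of the cell cycle, had -0.09±0.08, adjusted p = 0.54. IL7R, a NOTCH target in thymocytes, was below 1 CPM in every library and no difference was detectable at this depth.

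TRIB2, a pseudokinase induced by NOTCH in T-ALL, moved in opposite directions. It stood at 48.5, 48.2 and 50.1 CPM in NT DMSO, 60.9, 62.1 and 56.4 CPM in NT GSI, 49.5, 42.5 and 41.3 CPM in KO DMSO and 34.1, 33.3 and 30.5 CPM in KO GSI. The NT GSI libraries were above the NT DMSO libraries, and the KO GSI libraries were below all others. The interaction was -0.73±0.12, adjusted p = 0.012. TRIB2 rose in NT cells (0.29±0.08, adjusted p = 0.018) and fell in KO cells (-0.44±0.09, adjusted p = 0.0013), and the call of the rise was lost without NT DMSO replicate 1 (0.28) or 2 (0.28) or NT GSI replicate 1 (0.27) or 2 (0.24). NOTCH1 itself went from 485 to 434 CPM in NT cells and from 399 to 285 CPM in KO cells, an interaction of -0.33±0.08, adjusted p = 0.041, kept in 2 of the 12 fits with values from -0.36 to -0.26. CR2, a complement receptor gene that NOTCH controls in T-ALL, fell from 136 to 4.32 CPM in NT cells and from 137 to 6.34 CPM in KO cells (0.55±0.11, adjusted p = 0.019). Its call was lost without KO GSI replicate 3 (0.54), NT DMSO replicate 1 (0.55) or NT GSI replicate 1 (0.48). Of 15 measured NOTCH targets, 2 had a positive call (CR2 and RHOU) and 3 a negative one (HES1, TRIB2 and NOTCH1), beside 2.1% and 0.692% of all genes, and 10 had none, with a median of 0.09. RHOU, named after its values were seen, had 0.32±0.08, adjusted p = 0.037 and was kept in 3 fits. On leaving out 1 library there were 0 to 4 positive calls, 0 without KO GSI replicate 3, NT DMSO replicate 1 or NT GSI replicate 1, 1 without each of 6 others and 4 without NT GSI replicate 2, and 2 or 3 negative ones. With GSI, 10 of the 15 fell and 1 rose in NT cells, and 11 fell and none rose in KO cells. Of all genes, 15% fell and 9.67% rose in NT cells, and 9.58% fell and 9.69% rose in KO cells.

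**Figure D3:**
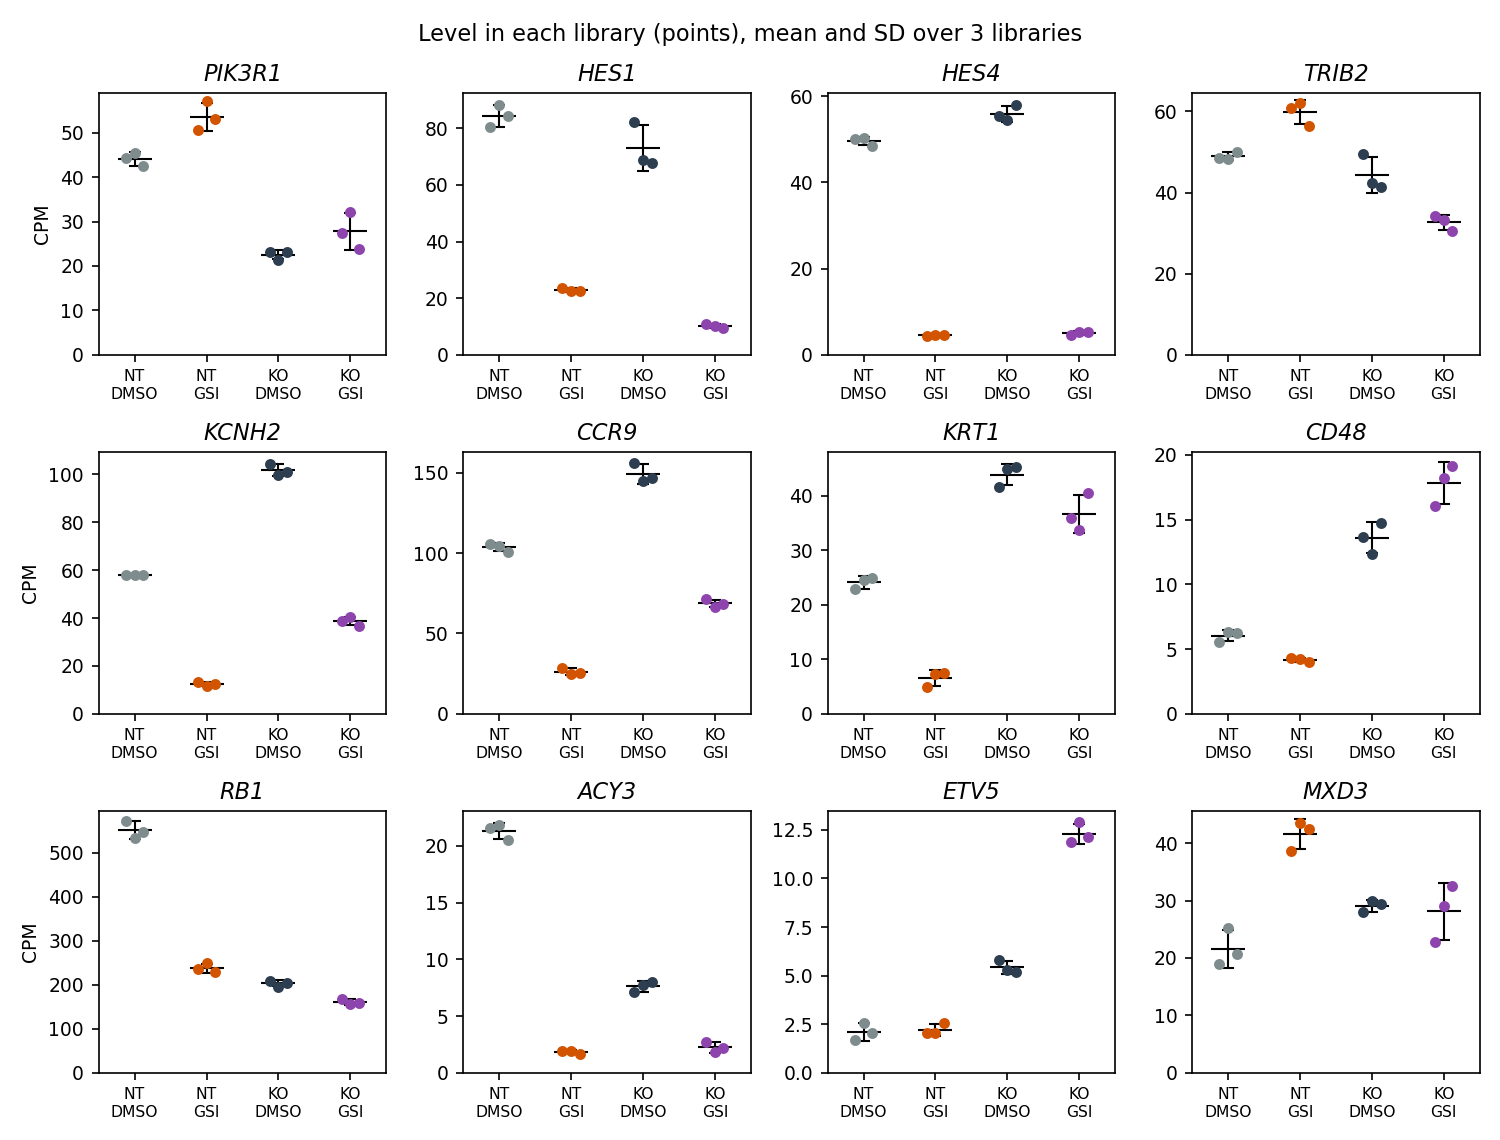
Level in CPM (y axis, from 0) of 12 genes in each of the 12 libraries (points), by group, with the mean as a line and the SD over 3 libraries as error bars. HES1 is lowest in KO GSI, and HES4 has overlapping GSI libraries in both genotypes. KRT1, KCNH2, CCR9 and RB1 fall by a smaller fold with GSI in KO than in NT cells, although KCNH2 and CCR9 do not fall by fewer CPM.

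Among genes above 5 CPM that were called in all 12 fits, the largest interaction belonged to RXRA, which encodes a retinoid X receptor, the shared partner of many nuclear receptors. RXRA (chr9:134317098-134440585) stood at 4.82, 5.59 and 4.2 CPM in NT DMSO, 0.426, 0.429 and 0.364 CPM in NT GSI, 13.6, 12.1 and 13.1 CPM in KO DMSO and 5.19, 5.02 and 3.97 CPM in KO GSI. It was lowest in NT cells with GSI, while KO GSI libraries overlapped those of NT DMSO. The interaction was 2.12±0.19, adjusted p = 6.2e-05, with falls of 11.9-fold in NT and 2.73-fold in KO cells. KRT1, a type II keratin, stood at 22.8, 24.5 and 24.9 CPM in NT DMSO, 4.93, 7.33 and 7.38 CPM in NT GSI, 41.5, 44.8 and 45.2 CPM in KO DMSO and 35.9, 33.6 and 40.5 CPM in KO GSI. All KO GSI libraries exceeded all NT libraries of either treatment. KRT1 fell 3.69-fold in NT cells and had a change of -0.26±0.11, adjusted p = 0.1 in KO cells, an interaction of 1.62±0.16, adjusted p = 8.1e-05.

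KCNH2, the hERG potassium channel, stood at 58.2, 58.1 and 57.8 CPM in NT DMSO, 13.2, 11.4 and 12.2 CPM in NT GSI, 105, 99.8 and 101 CPM in KO DMSO and 39, 40.4 and 36.9 CPM in KO GSI. The groups did not overlap, KO libraries being higher with either treatment, and the fall of 4.71-fold in NT cells compared with 2.63-fold in KO cells (0.84±0.09, adjusted p = 0.00018). ACY3, an aminoacylase, went the other way at baseline. It stood at 21.6, 21.8 and 20.5 CPM in NT DMSO, 1.93, 1.93 and 1.69 CPM in NT GSI, 7.11, 7.75 and 8.0 CPM in KO DMSO and 2.71, 1.82 and 2.17 CPM in KO GSI, so DMSO levels were lower in KO cells and the GSI groups overlapped (1.75±0.26, adjusted p = 0.0076). LGALS12, a galectin, went from 7.52 to 0.464 CPM in NT cells and from 15.7 to 2.56 CPM in KO cells (1.4±0.24, adjusted p = 0.015). PDE9A, which degrades cyclic GMP, went from 3.58 to 0.346 CPM in NT cells and from 7.95 to 2.66 CPM in KO cells (1.77±0.33, adjusted p = 0.016). LINC00891, a long intergenic RNA, went from 6.51 to 0.894 CPM in NT cells and from 20.9 to 6.04 CPM in KO cells (1.06±0.19, adjusted p = 0.016), and SUSD4, a membrane protein of complement control, had 1.03±0.18, adjusted p = 0.015. All of these were called in each of the 12 fits. FBXO2, a ubiquitin ligase subunit for glycoproteins, had 1.77±0.36, adjusted p = 0.023 and was kept in 9 fits, lost without KO GSI replicate 3 (1.42), NT DMSO replicate 2 (1.68) or NT GSI replicate 1 (1.74).

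PHEX, a membrane endopeptidase named after its values were seen, had a called fall in NT cells and none in KO cells. It stood at 4.73, 4.23 and 5.21 CPM in NT DMSO, 0.851, 1.1 and 1.27 CPM in NT GSI, 0.888, 0.429 and 1.11 CPM in KO DMSO and 0.984, 1.5 and 1.39 CPM in KO GSI. KO DMSO libraries overlapped those of NT GSI, and the interaction was 2.82±0.37, adjusted p = 0.0014. A lower DMSO level in KO cells was also seen for TNFSF10, the death ligand TRAIL, which fell in both genotypes. It went from 411 to 69.2 CPM in NT cells and from 198 to 46.7 CPM in KO cells (0.49±0.08, adjusted p = 0.01). It was also seen for EVL, a regulator of actin assembly, which went from 332 to 157 CPM in NT cells and from 168 to 100.5 CPM in KO cells (0.33±0.06, adjusted p = 0.016), and for EPOP, a chromatin-associated elongin partner (0.86±0.15, adjusted p = 0.015). For TNFSF10, EVL and EPOP the RNA was lower in KO than in NT cells under DMSO and fell with GSI in both. The genotypes stood closer under GSI than under DMSO. A positive interaction in a gene that is lower in KO cells under DMSO largely implies this, so it is not a separate result.

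RB1, the retinoblastoma tumour suppressor that holds E2F factors in check, also had a lower DMSO level in KO cells. RB1 (chr13:48303726-48599436) stood at 572, 532 and 546 CPM in NT DMSO, 237, 249 and 228 CPM in NT GSI, 209.5, 196 and 205 CPM in KO DMSO and 169, 156 and 158 CPM in KO GSI. The NT DMSO libraries stood far above all others, and no group overlapped another. GSI lowered RB1 2.31-fold in NT and 1.27-fold in KO cells, an interaction of 0.87±0.09, adjusted p = 8.1e-05. It was the only call among 13 measured G1 cyclins, kinases and inhibitors (7.69%, beside 2.79% of all genes). Genes of G1/S and DNA replication had 1 call among 35 (2.86%, beside 2.79% of all genes). This was CDT1, a licensing factor of replication origins, at -0.57±0.11, adjusted p = 0.022. That call was lost without KO DMSO replicate 2 (-0.48), KO GSI replicate 3 (-0.51) or NT DMSO replicate 1 (-0.54). Of the 35 values, 27 were positive and 8 negative (median 0.08). At an unadjusted p under 0.05 edgeR counted 13 of the 35, beside 3506 of all 17346 genes. DESeq2 called 6 and limma-voom 1. None of 26 genes of G2/M and mitosis was called, with a median of 0.07, although 10 rose in NT and 17 in KO cells. Of all genes, 9.67% rose in NT and 9.69% in KO cells. At an unadjusted p under 0.05 edgeR counted 5 of the 26, and neither DESeq2 nor limma-voom called any.

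Some surface genes of T cells fell less in KO cells, CD3D and CCR9 in all 12 fits. CD3D, a chain of the T-cell receptor complex, stood at 231, 229 and 229 CPM in NT DMSO, 124, 128 and 121 CPM in NT GSI, 214, 224 and 226 CPM in KO DMSO and 166, 167 and 175 CPM in KO GSI. DMSO libraries of the genotypes lay close together, whereas all KO GSI libraries were above all NT GSI libraries. CD3D fell 1.85-fold in NT and 1.31-fold in KO cells (0.50±0.06, adjusted p = 0.00068). CD3G, its neighbour transcribed away from it on chromosome 11, had 0.38±0.07, adjusted p = 0.019, a call lost without NT DMSO replicate 1 (0.37) or NT GSI replicate 1 (0.36). CCR9, the chemokine receptor that guides cells to thymus and gut, stood at 106, 104 and 101 CPM in NT DMSO, 28.4, 24.8 and 25.7 CPM in NT GSI, 156, 145 and 146 CPM in KO DMSO and 71.3, 66.5 and 68.2 CPM in KO GSI. The 4 groups did not overlap, with KO above NT under both treatments (0.86±0.10, adjusted p = 0.00068). CD2, an adhesion receptor, went from 64.6 to 14.8 CPM in NT cells and from 55.2 to 28.1 CPM in KO cells, and its value of 1.15±0.28, adjusted p = 0.042 was kept in 2 fits, with values from 0.95 to 1.30. Of 30 measured genes of the T-cell receptor and thymocyte surface, these 4 had positive calls (13.3%, beside 2.1% of all genes) and none a negative one (median 0.14). Of the 30, 13 fell in NT and 11 in KO cells, beside 15% and 9.58% of all genes. Between 2 and 6 members were called when 1 library was left out, 2 without NT DMSO replicate 1 or NT GSI replicate 1. TNFRSF8 (CD30), outside that list, went from 33.3 to 17.4 CPM in NT cells and from 36.1 to 27.2 CPM in KO cells (0.53±0.10, adjusted p = 0.016).

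The promoter of CD3D is shown because CD3D and HES1 were the genes among the 44 in whose window the RBPJ motif was found. It is given as above, chr11:118342706-118342955 on the minus strand, with the motif on the opposite strand of the gene 63 bases before the start.
CD3D: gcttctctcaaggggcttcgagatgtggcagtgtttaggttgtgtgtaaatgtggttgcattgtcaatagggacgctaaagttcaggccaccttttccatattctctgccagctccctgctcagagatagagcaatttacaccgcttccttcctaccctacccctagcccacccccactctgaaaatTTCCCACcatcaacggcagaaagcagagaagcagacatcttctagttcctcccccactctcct
A window was found for 24 of the 44 genes. Of these, 2 (8.33%) held GTGGGAA and 8 (33.3%) its core, beside 5.43% and 20.8% of all windows. The E-box CACGTG, which MYC with MAX can bind, was in 3 of the 24 (12.5%). It was found for 33 of 277 positive genes with a window (11.9%) and for 8.33% of 84 such negative genes, and in 6.34% of all windows. The forkhead motif GTAAACA was in 1 of the 24 (4.17%), in 1.08% of positive genes and in 3.57% of negative genes, against 2.98% of all windows. A gene was counted if any of its windows held the motif. The shares of all windows count each window, whether or not its gene was expressed here. The 2 kinds of share are thus not directly comparable, and they were not tested.

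A rise with GSI in KO cells alone was clearest for ETV5, an ETS transcription factor induced by MAPK signalling. ETV5 stood at 1.67, 2.56 and 2.04 CPM in NT DMSO, 2.05, 2.02 and 2.55 CPM in NT GSI, 5.82, 5.27 and 5.2 CPM in KO DMSO and 11.9, 12.9 and 12.2 CPM in KO GSI. The NT groups overlapped, KO DMSO was above both, and KO GSI was higher again. GSI changed it by 0.08±0.15 in NT cells (adjusted p = 0.74) and raised it 2.27-fold in KO cells, an interaction of 1.1±0.20, adjusted p = 0.016. DUSP5, a phosphatase that ends ERK signalling, had 0.96±0.24, adjusted p = 0.042. It was the other call among 25 measured genes of MAPK feedback and immediate early response (2 called, 8%, beside 2.79% of all genes). It fell in both genotypes and was kept in 1 of the 12 fits, with values from 0.89 to 1.07. The median of that list was 0.17. MRPL51, a mitochondrial ribosomal protein, also rose in KO cells (0.33±0.05, adjusted p = 8.1e-05) with -0.07±0.05, adjusted p = 0.31 in NT cells, and CD63, a lysosomal membrane protein, had an interaction of 0.43±0.08, adjusted p = 0.016, lost without KO GSI replicate 3 (0.38) or NT DMSO replicate 1 (0.41).

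Negative interactions called in all 12 fits were 7. MXD3, a partner of MAX that opposes MYC, stood at 18.9, 25.2 and 20.6 CPM in NT DMSO, 38.6, 43.6 and 42.5 CPM in NT GSI, 27.9, 29.9 and 29.4 CPM in KO DMSO and 22.8, 29 and 32.6 CPM in KO GSI. NT GSI libraries were above all others, and the KO groups overlapped. MXD3 rose 1.93-fold in NT cells and changed by -0.05±0.12 in KO cells (adjusted p = 0.85), an interaction of -1.0±0.17, adjusted p = 0.015. Without the replicate block it was the only edgeR call among 13 genes of MYC and the MAX network (7.69%, beside 2.79% of all genes). Of the 13, 5 had an unadjusted p under 0.05, beside 3506 of all 17346 genes, and DESeq2 called 4. IKZF2 (Helios), an Ikaros-family factor, rose in both genotypes, by less in KO cells. It stood at 28.3, 29.5 and 33.5 CPM in NT DMSO, 78.8, 87.5 and 80.9 CPM in NT GSI, 78.4, 78.8 and 79.1 CPM in KO DMSO and 144, 145 and 151 CPM in KO GSI. KO DMSO overlapped NT GSI, and the rise of 2.7-fold in NT compared with 1.86-fold in KO cells (-0.54±0.09, adjusted p = 0.011). IKZF2 was the only call among 28 T-ALL and T-lineage transcription factors (3.57%, beside 2.79% of all genes).

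UVSSA, which acts in transcription-coupled DNA repair, stood at 20.5, 22.4 and 21.6 CPM in NT DMSO, 30.1, 23.6 and 30.2 CPM in NT GSI, 19.8, 24.6 and 23.5 CPM in KO DMSO and 15.1, 14.4 and 17.5 CPM in KO GSI. KO GSI libraries were below all others (-0.92±0.14, adjusted p = 0.0084). It rose in NT cells (0.38±0.10, adjusted p = 0.0087), a call lost without NT GSI replicate 3 (0.32), and fell in KO cells (-0.53±0.10, adjusted p = 0.0012). TONSL, a factor for repair of stalled replication forks, went from 65.4 to 65.8 CPM in NT cells and from 85.4 to 67.3 CPM in KO cells (-0.35±0.06, adjusted p = 0.015). The other members of the 7 were HES1, TRIB2 and a gene known only as ENSG00000273448 (chr7:67333047-67334383), at -1.52±0.25, adjusted p = 0.012. The largest negative values above 5 CPM lay elsewhere and were less stable. PKD1P3, a pseudogene of PKD1 whose reads can be split with its near-identical copies, had -1.43±0.33, adjusted p = 0.034 and was kept in 3 fits, with values from -1.68 to -1.20. MIB2, a ubiquitin ligase for NOTCH ligands, had -1.27±0.31, adjusted p = 0.041, kept in 1 fit, with values from -1.38 to -1.05.

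Opposite calls in the 2 genotypes were made for 31 genes, 22 that fell in NT and rose in KO cells and 9 the reverse. For 2 of them the interaction and both responses were called in all 12 fits, CD48 and ENSG00000273448. CD48, an adhesion ligand of lymphocytes, stood at 5.58, 6.33 and 6.22 CPM in NT DMSO, 4.33, 4.2 and 4.0 CPM in NT GSI, 13.7, 12.4 and 14.8 CPM in KO DMSO and 16, 18.2 and 19.2 CPM in KO GSI. It was higher in every KO than in every NT library. It fell in NT cells (-0.53±0.10, adjusted p = 0.001) and rose in KO cells (0.39±0.10, adjusted p = 0.0076), an interaction of 0.92±0.14, adjusted p = 0.0083. Most other members of the 31 moved little. SARNP, an RNA export factor, stood at 130.3, 139 and 133 CPM in NT DMSO, 116, 119 and 109 CPM in NT GSI, 133, 132 and 139.6 CPM in KO DMSO and 149.7, 151 and 164 CPM in KO GSI. Its interaction of 0.42±0.08, adjusted p = 0.016 joined -0.23 in NT and 0.20 in KO cells, the latter lost without KO DMSO replicate 1 (0.19) or KO GSI replicate 3 (0.15).

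Among genes of growth and protein synthesis, the called interactions described here were small and positive. Of 36 measured genes of ribosome biogenesis, all 36 fell with GSI in NT cells and 30 in KO cells, beside 15% and 9.58% of all genes. The interaction was called positive for 10 (27.8%, beside 2.1% of all genes) and negative for none. The median was 0.24 beside 0.02 over all genes, and 34 values were positive and 2 negative. NOP16 and NPM1, both nucleolar, had 0.40±0.08, adjusted p = 0.022 and 0.37±0.08, adjusted p = 0.029. The fall was thus somewhat smaller in KO cells for the 10 called members. The count was 15 without NT GSI replicate 2, 9 without KO DMSO replicate 3, 6 and 5 without KO GSI or KO DMSO replicate 1, 0 without KO GSI replicate 3 or NT DMSO replicate 1, and 1 or 2 without each of the other 6 libraries, and no member was called in all 12 fits.

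Cytosolic ribosomal proteins are the structural parts of the ribosome. Of 40 listed genes, 13 fell and none rose in NT cells, and 6 rose and none fell in KO cells. Of all genes, 15% fell and 9.67% rose in NT cells, and 9.69% rose and 9.58% fell in KO cells. The interaction was called positive for 10 (25%, beside 2.1% of all genes) and negative for none, and all 40 values were positive (median 0.29). RPS23 went from 928 to 764 CPM in NT cells and from 872 to 914 CPM in KO cells (0.35±0.07, adjusted p = 0.023), lost without KO GSI replicate 2 (0.33) or 3 (0.33), NT DMSO replicate 1 (0.34) or NT GSI replicate 1 (0.34). By symbol, 78 such genes were measured, of which 21 were called positive, none negative, and 74 had positive values. RPL38, 1 of these, was called in all 12 fits (0.42±0.07, adjusted p = 0.016). The summed level of the 40 genes was 50648, 48464 and 48701 CPM in NT DMSO, 42607, 47752 and 43659 in NT GSI, 50029, 48639 and 49147 in KO DMSO, and 53239, 54083 and 56839 in KO GSI. KO GSI was above the other 9 libraries of the contrast, and within NT GSI replicate 2 stood apart, close to the DMSO libraries. Replicate 2 is the library with the lowest mitochondrial share and NEAT1 level of that group, and the part of this in the result was not tested. Without it 30 of the 40 were called. The count was 11 without KO DMSO replicate 3 or KO GSI replicate 1, 0 without KO GSI replicate 3, NT DMSO replicate 1 or NT GSI replicate 1, and 2 to 4 without each of the other 6.

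Other growth lists held fewer calls, again beside 2.1% of all genes called positive. Nucleotide and polyamine synthesis had 3 positive calls among 22 (13.6%, median 0.16). They were UMPS, which completes uridine monophosphate (0.40±0.07, adjusted p = 0.016, all 12 fits), SMS, spermine synthase (0.41±0.07, adjusted p = 0.016, lost without NT DMSO replicate 1, 0.39), and ADSL, of purine synthesis (0.29±0.08, adjusted p = 0.049, 3 fits, values from 0.26 to 0.35). Aminoacyl-tRNA synthetases had 4 among 20 (20%, median 0.18), led by KARS1 (0.37±0.09, adjusted p = 0.034, 4 fits). Amino acid response genes under ATF4 had 3 among 31 (9.68%, median 0.16), of which SHMT2, the mitochondrial enzyme that makes glycine from serine, went from 200.1 to 110.4 CPM in NT cells and from 209 to 147 CPM in KO cells (0.35±0.06, adjusted p = 0.016, all 12 fits). No member of these 3 lists had a negative call. Without NT GSI replicate 2 the counts were 8, 6 and 7, and the lowest counts on leaving out 1 library were 1, 0 and 1. The synthetases had no call without any 1 KO GSI library, NT DMSO replicate 1 or NT GSI replicate 1. TOMM40, the channel for protein import into mitochondria, fell 1.81-fold in NT and 1.38-fold in KO cells (0.39±0.07, adjusted p = 0.015, all 12 fits). The 13 mitochondrially encoded genes had a median of 0.39, from 0.107 to 0.758 when 1 library was left out. None was called by edgeR, DESeq2 or limma-voom, and none reached an unadjusted p under 0.05.

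**Figure D4:**
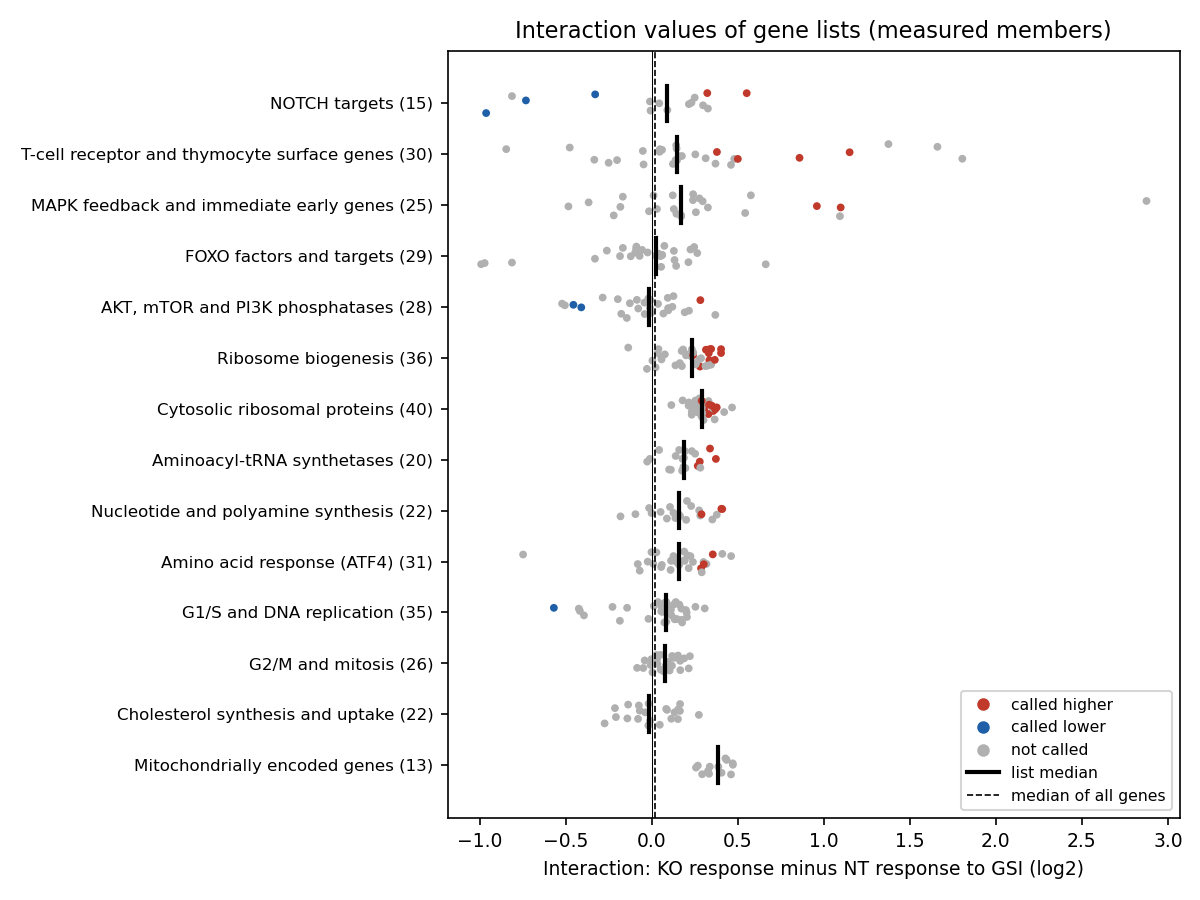
Interaction values (x axis, log2; KO response minus NT response to GSI) of the measured members of 14 gene lists, 1 point per gene, red or blue where called, with the list median as a bar and the median of all genes, 0.02, as a dashed line. All 40 ribosomal protein genes lie right of 0, NOTCH targets spread to both sides, and no member of the FOXO, G2/M, cholesterol or mitochondrially encoded lists is called.

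In the pathway that PIK3R1 belongs to, 1 of 9 measured class I PI3K subunits and adaptors (11.1%) and 3 of 28 genes of AKT, mTOR and PI3K phosphatases (10.7%) were called, beside 2.79% of all genes. None of the 4 was called in all 12 fits. The first was PIK3AP1, an adaptor that recruits PI3K in lymphocytes. It stood at 6.1, 6.45 and 5.54 CPM in NT DMSO, 4.43, 3.68 and 4.11 CPM in NT GSI, 7.48, 7.25 and 7.61 CPM in KO DMSO and 9.18, 8.83 and 8.28 CPM in KO GSI. GSI libraries were below DMSO libraries in NT cells and above them in KO cells, with an interaction of 0.80±0.17, adjusted p = 0.025. The call was lost without KO GSI replicate 2 (0.79) or 3 (0.84) or NT DMSO replicate 1 (0.79) or 2 (0.75). In the other list, TSC1, which restrains mTOR, had -0.41±0.09, adjusted p = 0.029 (7 fits), INPPL1, the phosphatase SHIP2, had -0.46±0.10, adjusted p = 0.029 (5 fits), and EIF4EBP1, a translation repressor, had 0.28±0.07, adjusted p = 0.047 (2 fits). Their values in the 12 fits ran from -0.44 to -0.34, from -0.49 to -0.35 and from 0.26 to 0.35. None of 12 genes of insulin and IGF signalling was called by edgeR without the replicate block, 1 by DESeq2 and none by limma-voom. With edgeR 2 of them had an unadjusted p under 0.05, beside 3506 of all 17346 genes.

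FOXO factors and their targets, which rise when AKT is quiet, had no edgeR call among 29 genes (median 0.02). DESeq2 called 1 of them and limma-voom none. At an unadjusted p under 0.05 edgeR counted 4, beside 3506 of all 17346 genes. In NT cells 13 rose with GSI and 2 fell, beside 9.67% and 15% of all genes. In KO cells 10 rose and 2 fell, beside 9.69% and 9.58% of all genes. CAT (catalase), which fell in both, had an interaction of 0.13±0.06, adjusted p = 0.26. The widest values in this list belonged to genes with wide errors: KLF2 at -0.99±0.64, PIK3IP1 at -0.97±0.83 and CCR7 at 0.66±0.41, named after their values were seen. Without the replicate block, edgeR made no call among 22 genes of cholesterol synthesis, 11 of fatty acid synthesis or 21 chaperones of the endoplasmic reticulum. Nor did it call any of 18 heat shock chaperones, 19 p53 targets or 15 genes of the AHR and NRF2 response. The same held for 22 genes of cytokine and JAK-STAT signalling and 25 of adhesion and cytoskeleton. At an unadjusted p under 0.05 edgeR counted 3, 2, 2, 4, 3, 3, 3 and 1 of them in that order, again beside 3506 of all 17346 genes. DESeq2 called 1, in the AHR and NRF2 list, and limma-voom none. Several of these changed with GSI in both genotypes: FADS2, a desaturase, went from 512 to 839 CPM in NT cells and from 405 to 579 CPM in KO cells (-0.20±0.10, adjusted p = 0.29), and STAT5A went from 749 to 948 CPM in NT cells and from 468 to 592 CPM in KO cells (-0.00±0.08, adjusted p = 1). Each of the lists for glycolysis (LDHB), the BCL2 family (BID), interferon response (MX2) and antigen presentation (PSMB8) had 1 positive call. These were 4%, 7.14%, 3.85% and 6.67% of the measured members, beside 2.1% of all genes. In the glycolysis list 22 of 25 values were positive and 3 negative (median 0.20). There edgeR counted 7 at an unadjusted p under 0.05, and DESeq2 called 4. The lists for NF-kB (TNFAIP3) and for NOTCH receptors and cofactors (NUMBL, an antagonist of NOTCH) had 1 negative call each. These were 7.14% and 3.45% of the measured members, beside 0.692% of all genes. Among 24 genes of lysosome and autophagy, CD63 and CTSB were positive and ULK1 negative (12.5% called, beside 2.79% of all genes). Of these, MX2 (0.32) and CD63 were kept in 10 of the 12 fits and the others in 7 or fewer.

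CB-103, which blocks the NOTCH transcription complex itself, allowed the 2 kinds of inhibitor to be set side by side. These comparisons were added after the data were seen. The GSI and CB-103 interactions share the DMSO libraries, so they are set side by side only. Their difference, in which the DMSO libraries cancel, was fitted directly. The doses are not given, so it is not known whether they match. The CB-103 interaction was called for 2533 genes (14.6%), and the difference between the GSI and CB-103 interactions for 2191 (12.6%), 969 (5.59%) with the GSI value higher and 1222 (7.04%) with it lower. HES1 had -0.96±0.12 with GSI and -0.01±0.12 with CB-103, and the difference of -0.95±0.13 was called (adjusted p = 0.00017). RXRA had 2.12±0.19 with GSI and -0.26±0.14 with CB-103 (difference 2.39±0.19, adjusted p = 8.7e-07), and its CB-103 levels were 13.7 CPM in NT and 30.4 CPM in KO cells, above DMSO in both. TRIB2 (-0.98±0.12), MXD3 (-1.46±0.18) and IKZF2 (-0.60±0.09) were also lower with GSI than with CB-103, each called.

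For RB1, CD3D, ETV5, KCNH2, CCR9 and CD48 the 2 inhibitors gave interactions of 1 sign. RB1 had 0.87±0.09 with GSI and 0.93±0.09 with CB-103, and the difference of -0.06±0.09 did not pass (adjusted p = 0.76). CD3D had 0.50±0.06 and 0.34±0.06 (difference 0.16±0.06, adjusted p = 0.093), and ETV5 1.1±0.20 and 1.5±0.23 (difference -0.40±0.22, adjusted p = 0.29). KCNH2, CCR9 and CD48 were positive with both and further so with CB-103, with called differences of -0.51, -0.35 and -0.68. CCND3 had no called interaction with GSI but 0.99±0.10 with CB-103 (difference -1.1±0.10, adjusted p = 4.3e-06). PIK3R1 itself differed between inhibitors in the same way, at 0.02±0.12 with GSI and 0.81±0.13 with CB-103 (difference -0.78±0.12, adjusted p = 0.00053). In fold, its KO level was thus closer to its NT level under CB-103 than under DMSO, and the label check above covers DMSO and GSI only.

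By gene type, 442 of the 484 called genes were protein-coding, 9 were long intergenic RNAs, 6 antisense RNAs and 6 small nuclear RNAs. The last were 6 copies of U1 (RNU1-1, RNU1-2, RNU1-3, RNU1-4, RNVU1-18 and RNVU1-29) with identical values, so they count as 1 measurement at most and their assignment is uncertain. Each stood at 0.164, 1.11 and 0.775 CPM in NT DMSO, 0.0751, 0.0613 and 0.078 CPM in NT GSI, 0.086, 0.0715 and 0.0278 CPM in KO DMSO and 0.238, 0.199 and 0.22 CPM in KO GSI, with a value of 4.95±0.87, adjusted p = 0.015. NT DMSO replicate 1 lay below the other two of its group. SNORD3A, a small nucleolar RNA, had 2.56±0.52, adjusted p = 0.023, kept in 8 fits, and stood at 3.01, 9.63 and 8.14 CPM in NT DMSO, again lowest in replicate 1. TRD-AS1, antisense to the T-cell receptor delta locus, went from 65.9 to 0.838 CPM in NT cells and from 31.4 to 0.89 CPM in KO cells (1.14±0.28, adjusted p = 0.042, 3 fits, values from 0.93 to 1.64). Of the 484, 1 gene (0.207%) had at least 25% of its exons under an opposite gene at least 10 times as abundant, against 1.80% of all genes tested.

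Markers of other cell types had no called interaction in the main test. Of these, 5 B-cell, 4 myeloid, 2 erythroid and megakaryocytic and 4 adherent-cell markers passed the filter. None was called by edgeR without the replicate block, by DESeq2 or by limma-voom. With the block, edgeR called CD79B (1.23, adjusted p = 0.039), a B-cell marker at 0.501 to 3.46 CPM. At an unadjusted p under 0.05, 1 B-cell and 1 myeloid marker passed in the main test, beside 3506 of all 17346 genes. HBB, HBA1, HBG1, GP9, CDH5, COL3A1, CSF1R, ELANE and S100A8 were at 0 in all 12 libraries. EPOR, of the erythroid list, stood at 10.2 to 13.2 CPM and COL1A1, of the adherent-cell list, at 7.62 to 25.6 CPM. The summed level of 7 B-cell markers was 3.45, 3.59, 4.46 and 5.58 CPM on average in NT DMSO, NT GSI, KO DMSO and KO GSI, and that of 10 myeloid markers was 6.12, 8.12, 5.68 and 10.1 CPM. CD68, a lysosomal protein that made up most of the myeloid sum, rose in both genotypes and had 0.46±0.17, adjusted p = 0.15. PECAM1, an adhesion molecule also of endothelium, stood at 216 to 267 CPM in the 12 libraries and had 0.15±0.09, adjusted p = 0.38.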

How the data were processed

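The 18 RPMI-8402 libraries came from a stranded polyA preparation with paired-end reads, per the labels' protocols. The authors deposited estimated counts per gene, rounded to whole numbers, and estimated counts per transcript for each library, per the file headers. The submitters' processing notes list hg38, Salmon 1.4.0, HISAT2 2.2.1, FastQC 0.11.9 and bcl2fastq 2.20. How transcript estimates became gene counts is not given in the sources used here. A table of variance-stabilised values was not used.

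Genes passed filterByExpr of edgeR 4.0.16 (R 4.3.3), which left 17346, and TMM factors ran from 0.954 to 1.03. A quasi-likelihood F test was fitted to the 18 libraries with 1 mean per group and 12 residual degrees of freedom, and the biological coefficient of variation was 0.0965. P-values were adjusted by Benjamini-Hochberg over the genes of each comparison, with calls under 0.05. SE is the log2 value divided by the square root of F. The script was tested on simulated data. Coordinates are from GENCODE 29, and promoter windows from RefSeq.

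The alternatives were DESeq2 size factors, DESeq2 1.42.0, limma-voom (limma 3.58.1), no count filter, the 12 libraries alone, the replicate number as a block, a 2-fold threshold, gene sums of the transcript estimates, each library left out, replicates 2 and 3 alone, and no mitochondrial genes. Named were 11 fixed genes, the 12 largest called values in each direction above 5 CPM, up to 4 called members of each of 38 lists and of each class, and the most abundant members of lists without a call. Members, lists and rules were chosen with earlier results of these data known. The genes called in every leave-out and the comparison with CB-103 were added after the data were seen.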

Additional observations from a re-analysis of the deposited data

Results flagged for a closer look

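Responses that differ between the genotypes by the test of the interaction itself are the subject here, and 484 genes did so. Of these, 31 had called responses in opposite directions. The interactions of TRIB2 (-0.73), UVSSA (-0.92), CD48 (0.92) and SARNP (0.42) were called in all 12 fits with 1 library left out. Of these 4 genes, CD48 also kept the calls of both responses in all 12. TXNDC17, a thioredoxin-like protein (0.46, 9 fits), RPL36A, a ribosomal protein (0.42, 4 fits), NR2C1, an orphan nuclear receptor (-0.45, 5 fits) and ZNF594, a zinc finger protein (-0.79, 3 fits), kept the interaction call less often. That of TXNDC17 was lost without KO GSI replicate 3 (0.40), NT DMSO replicate 1 (0.46) or NT GSI replicate 1 (0.44). RPL36A was lost in 8 fits (0.38 to 0.45) and NR2C1 in 7 (-0.42 to -0.39), each without NT DMSO replicates 1 and 2, NT GSI replicates 1 and 3 and KO GSI replicate 3 among others. ZNF594 was called only without KO DMSO replicate 1, KO GSI replicate 2 or NT GSI replicate 2. The 31 rest on calls in each genotype, and no test for outlying values was run, since each group has 3 libraries.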

How the results depend on the processing

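Of 3483 values of 167 named genes under 21 alternatives, 2852 kept their side of the threshold, 613 lost their call, 18 gained one and 0 reversed. The 484 interaction calls (364 positive, 120 negative) became 1227 (919 and 308) with DESeq2's Wald test, 997 (602 and 395) with transcript sums, 830 (687 positive) without mitochondrial genes, 42 (41 and 1) with replicates 2 and 3 only, and 54 (27 and 27) with a 2-fold threshold. Without a count filter 370 were negative and 287 positive, so that the share of positive calls fell below that of negative ones. Leaving out 1 library gave 53 to 1505 calls, 43 to 1200 positive and 10 to 305 negative. The response in NT cells had 3234 to 4330 calls and 510 at 2-fold, and that in KO cells 2472 to 3502 and 322. The replicate block gave 1291 calls (949 and 342). Among the named genes it lost 0 calls and added 4 in edgeR: MYC (0.33, adjusted p = 0.018), CD79B (1.23), ACTG1 (0.32) and IGF2R (-0.31). Libraries with the same number had correlated deviations of 0.0326 to 0.309, above 0.1 in 12 of 18 pairs, and 9 of 12 libraries correlated best with their own number. The 6 pairs at or under 0.1 were all of replicates 2 or 3. Pairs of replicate 1 libraries ran from 0.264 to 0.309. Pairs of replicate 1 with another number were all negative, from -0.229 to -0.069. Replicate 1 libraries thus deviated together, which the main test does not model, and the block is given as an alternative only. With 3 libraries per group many genes lie near the threshold, so the counts are uncertain. The sizes of called genes changed less when 1 library was left out. Those genes were selected by their values here and the fits share most libraries, so this does not show how well the sizes would repeat. The cause of each shift was not tested.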

Other observations

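Several genes called in all 12 fits belong to none of the lists. KCNK5, a pore-domain potassium channel, went from 165 to 90.8 CPM in NT cells and from 127 to 86.8 CPM in KO cells (0.32±0.05, adjusted p = 0.012, edgeR). SELENON, a selenoprotein of the endoplasmic reticulum, went from 134 to 62.6 CPM in NT cells and from 111 to 71.2 CPM in KO cells (0.45±0.07, adjusted p = 0.0084). TESC, a calcium-binding protein, stood at 22.2, 22.5 and 20.3 CPM in NT DMSO, 15.7, 15.2 and 14.9 CPM in NT GSI, 21.2, 21.1 and 21.7 CPM in KO DMSO and 24.7, 20.9 and 23.8 CPM in KO GSI. The fall was seen in NT cells, and the KO groups overlapped (0.62±0.10, adjusted p = 0.0083). BPNT2, a phosphatase of the Golgi, had an interaction of 0.36±0.06, adjusted p = 0.015.

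Small interactions were also called in all 12 fits for 2 genes of other complexes. ATP5ME, a subunit of ATP synthase, went from 58.9 to 46.5 CPM in NT cells and from 60.8 to 64.4 CPM in KO cells (0.43±0.08, adjusted p = 0.016). BRK1, a subunit of the WAVE actin complex, went from 124 to 112 CPM in NT cells and from 133 to 154 CPM in KO cells (0.36±0.07, adjusted p = 0.016). Its fall in NT cells (-0.15±0.05, adjusted p = 0.03) was lost without NT DMSO replicate 1 (-0.15), 2 (-0.14) or 3 (-0.15) or NT GSI replicate 1 (-0.10) or 3 (-0.14). IL16, a cytokine precursor, rose in KO cells from 3.5 to 7.19 CPM and stood at 9.58 and 11.1 CPM in NT cells (0.83±0.18, adjusted p = 0.031, 6 fits, values from 0.69 to 0.97). PCBP3, an RNA-binding protein, fell further in KO cells and went from 10 to 6.43 CPM in NT cells and from 20.1 to 7.65 CPM in KO cells (-0.75±0.15, adjusted p = 0.022, 8 fits, values from -0.85 to -0.67).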
